A study of Mus musculus with 28 samples.

Results

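The question here was whether estradiol plus progesterone (E+P) moved transcripts in the same way in luminal epithelial cells and in stromal cells that share a Pdgfra lineage label. For each mouse the GFP+ luminal library was set against the GFP+ stromal library of the same mouse, and this within-mouse difference was compared between E+P-treated and untreated mice. The comparison used 14 of the 28 RNA-seq libraries of the series, a luminal and a stromal library from each of 4 untreated and 3 E+P mice, so the replicate was the mouse. All animals were C57BL/6 females carrying PdgfraCre and the R26mTmG reporter, in which cells express tdTomato until Cre removes it and eGFP is expressed instead. The E+P mice had received estradiol and progesterone, which the study gave its animals as slow-release pellets, and the untreated mice had received neither. Ages, doses and estrous stage of these 7 animals are not in the labels. The study's methods give an age of 10 to 12 weeks and a similar estrous stage for adult mice of this tracing model, and describe its E+P pellets, for wild-type adults, as holding 0.14 mg estradiol and 14 mg progesterone released over 14 days. The Cre was not inducible, so GFP marked every cell that had expressed Cre from Pdgfra regulatory sequence at any time and the descendants of such cells, not present Pdgfra expression. Cells had been sorted after removal of CD45+, CD31+ and Ter119+ cells, the luminal fraction as CD49f low EpCAM+ and the stromal fraction as CD49f- EpCAM-. The other 14 libraries, of tdTomato+ cells from the same mice, were used only as a second set of values.

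Estrogen and progesterone drive side branching and alveolar growth of the mammary epithelium. Their receptors are found in a subset of luminal cells, which pass the signal on to neighbouring epithelial cells through secreted factors such as RANKL, encoded by Tnfsf11, amphiregulin and Wnt4. Estrogen receptor is also present in mammary stromal cells, which supply collagens, hyaluronan, proteases and growth factors around the ducts. A bulk library of sorted cells averages over all such subsets, so a change in the RNA per cell and a change in the share of a cell type within the gate cannot be told apart.

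The 14 libraries held between 8623383 and 22514228 counted reads, with a median of 14835902, and in luminal cells the untreated libraries were shallower, at 8623383 to 14501957, than most E+P libraries, at 13074184 to 21805128. Levels below are CPM, which are counts divided by the size of the library and scaled by edgeR's TMM factors, and a count of 3 in a library corresponded to 0.133 to 0.348 CPM before that scaling. RNA integrity had varied over the whole scale in the series and was not given per library. The labelled lineages carried their markers. The summed level of 14 luminal genes, among them Krt8, Krt18, Krt19 and Epcam, was 6191 to 9035 CPM in luminal libraries, and that of 14 fibroblast genes, among them Pdgfra, Col1a1 and Dcn, was 47010 to 86560 CPM in stromal libraries.

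RNA of the other lineage moved with treatment and bears on every gene with a strong lineage bias. In stromal libraries the luminal list summed to 24.2, 113.6, 37.0 and 23.3 CPM in untreated mice 1 to 4 and to 8.15, 6.52 and 5.06 CPM in E+P mice 1 to 3. All untreated values lay above all E+P values, and untreated mouse 2 stood apart. As shares of the luminal level these were 0.306% to 1.5% in untreated and 0.0666% to 0.107% in E+P mice. In luminal libraries the fibroblast list summed to 156.3, 103.9, 67.5 and 56.3 CPM in untreated mice and to 49.3, 42.7 and 47.3 CPM in E+P mice, again without overlap. All 14 members of each list had counts in each lineage and treatment group. A gene was set against a carry-over level, defined as 2 times the marker share of that library multiplied by the gene's level in the other lineage. Of the 165 genes called below, 155 exceeded that level in all 7 libraries of their lower lineage, and 3, Smpd3, Klk1 and Col15a1, were within it in 4 or more of the 7. The share is that of a summed list, and single members differed from it. Krt19, of the luminal list, itself exceeded the level in E+P stroma, at 2.28 to 3.18 CPM beside an E+P luminal mean of 594.6 CPM. A gene above the level is therefore not shown to be free of carry-over. The leukocyte list reached at most 3.91 CPM and the red blood cell list at most 1.57 CPM in any library. The skeletal muscle list was at 3.43 to 43.02 CPM in untreated luminal libraries, with a mean of 13.9 and an SD of 19.4. It was at 5.81 to 10.4 CPM in E+P luminal libraries and at 8.71 to 17.2 CPM in stroma. The sums of 3 further lists differed in stroma between treatments, each mainly through a single gene. The endothelial list was at 193 to 272 CPM untreated and at 141 to 160 CPM after E+P, in which Tek had means of 191 and 90.9 CPM while Kdr was at 30.2 and 52.7 CPM and the other members were below 3 CPM. The Schwann list was at 120 to 156 CPM and then 354 to 375 CPM, in which Ngfr rose from a mean of 6.69 to 237.5 CPM. The mature adipocyte list was at 37.5 to 162 CPM and then 15.8 to 34.95 CPM, of which Fabp4 made up means of 76.9 and 24.7 CPM, and Adipoq, Lep and Pck1 were at 0 counts after E+P. The part of these genes' source cells in the results was not tested.

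**Figure D1:**
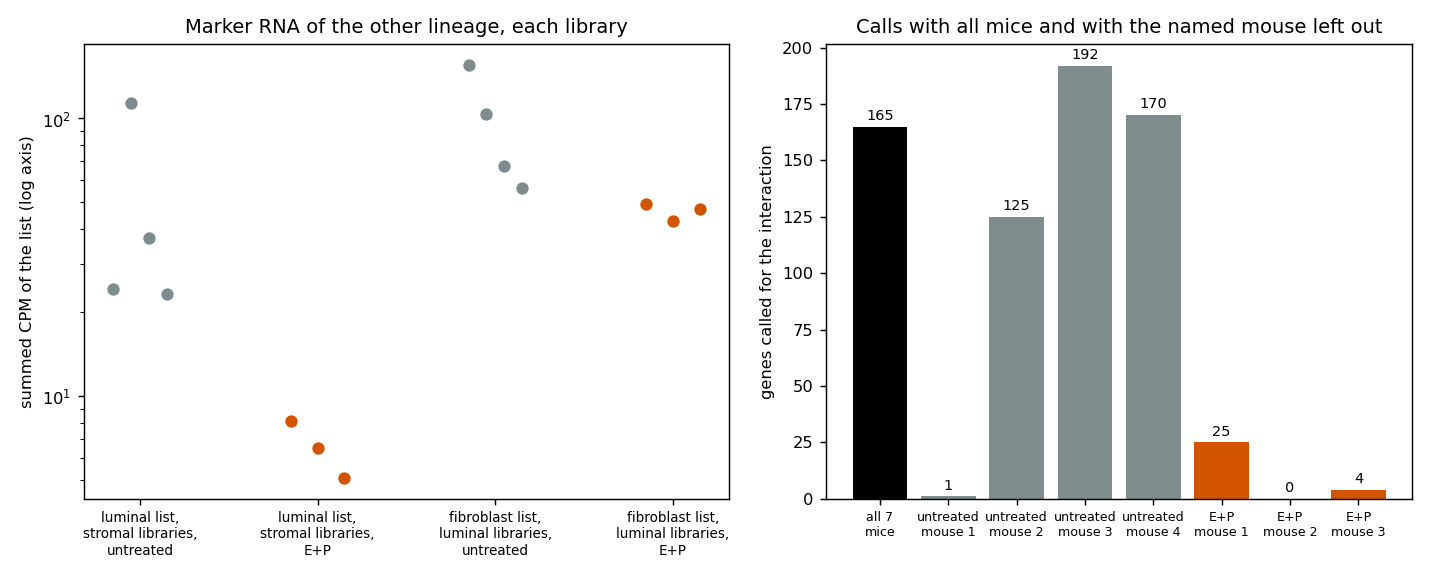
Left, summed CPM of the marker list of the other lineage in each of the 14 libraries on a log axis (grey, untreated; orange, E+P); the untreated libraries lie above the E+P libraries for both lists, and 1 untreated stromal library reaches 113.6 CPM. Right, number of genes called for the luminal by E+P interaction with all 7 mice (165) and with the named mouse left out, from 0 without E+P mouse 2 to 192 without untreated mouse 3.

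Of 17504 genes tested, 165 had a luminal minus stromal difference that changed with E+P at an adjusted p under 0.01 (edgeR quasi-likelihood test of the interaction with the mouse as a block), 0.943% of the genes. The signed difference, luminal minus stromal on the log2 scale, became larger after E+P for 82 genes (0.468%) and smaller for 83 (0.474%), so that larger means a shift toward luminal and smaller a shift toward stromal cells, whichever lineage was higher. At an unadjusted p under 0.05 there were 3615. Without the block of mice the count was 300. Mean E+P effects within each lineage, from a 4-group fit without the block, were called for 1157 genes in luminal cells (633 higher, 3.62% of genes, and 524 lower, 2.99%) and for 60 in stromal cells (42 higher, 0.240%, and 18 lower, 0.103%). The ratio of these counts depends on the fit, since with only the 2 groups compared in each fit they were 560 and 187, and without E+P mouse 2 they were 387 and 13. They were 687 and 30 without untreated mouse 1, 402 and 28 without E+P mouse 1, and 497 and 35 without E+P mouse 3. Among the 82 genes the luminal effect was the larger of the pair in size for 74, with a median log2 change of 1.53 in luminal and -0.27 in stromal cells. For the 83 genes it was larger in luminal cells for 61, with medians of -1.27 and 0.36. Of the 82 genes, 47 had a mean difference on the stromal side in untreated mice, and 35 had been higher in luminal cells. For the 47 the shift toward luminal cells narrowed the gap or reversed it. St6gal1, for example, had a mean difference of -0.2 in untreated mice and 4.73 after E+P. Of the 83 genes, 55 had been higher in stroma already, so that a smaller signed difference was a wider gap between the lineages, and 28 had been higher in luminal cells. The median interaction of all genes tested was -0.01 on the log2 scale, with 8642 above 0 and 8862 below it.

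The number of calls rested on few mice. It was 170 without untreated mouse 4, 192 without untreated mouse 3 and 125 without untreated mouse 2, but 1 without untreated mouse 1, 25 without E+P mouse 1, 4 without E+P mouse 3 and 0 without E+P mouse 2, where 2793 genes had an unadjusted p under 0.05. Of 65 called genes that are named here, all kept the sign of their interaction when any mouse was left out, which their selection favours. Without E+P mouse 2 none of the 65 stayed under 0.01, their adjusted p ran from 0.012 to 0.0541, and 61 stayed under 0.05. Without untreated mouse 1 1 of them stayed under 0.01 and all 65 stayed under 0.05, the highest adjusted p being 0.0343. These statements apply to each gene below and are not repeated. An exact two-sided permutation test over the 7 mice has 35 arrangements and cannot give a p below 0.0286, and since the genes were chosen from the same contrast, in part for not overlapping, it adds nothing for them. The within-mouse differences of all 165 called genes did not overlap between treatments, which follows largely from their being called. Over all genes tested this held for 11.2% (higher after E+P) and 10.7% (lower).

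**Figure D2:**
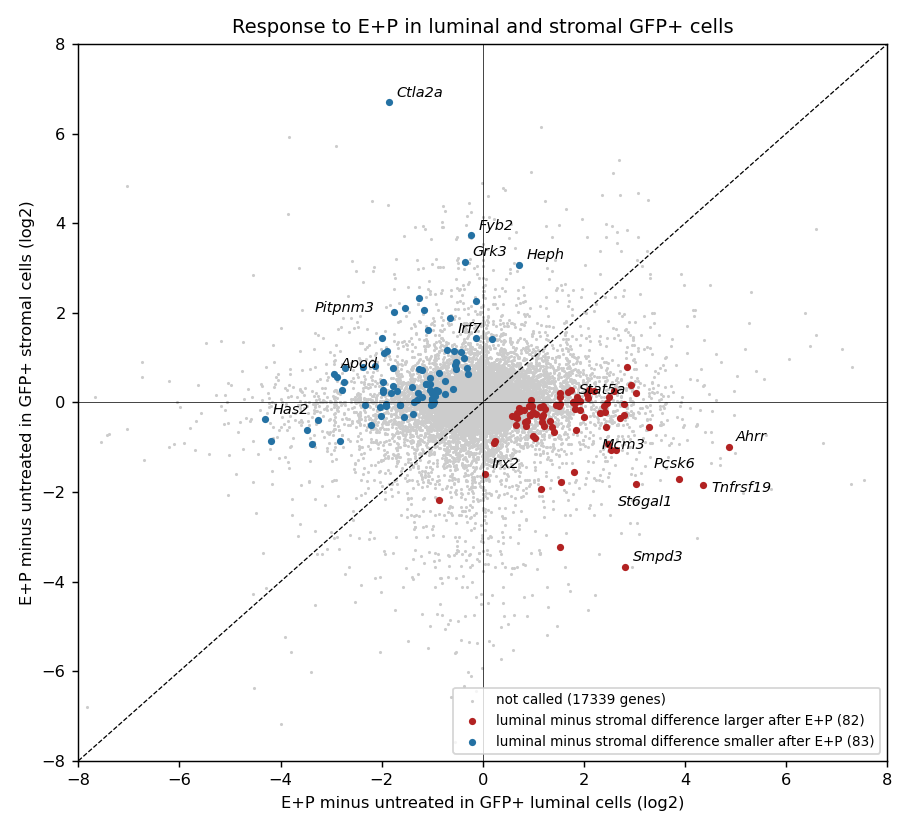
Change with E+P in GFP+ luminal cells (x axis, log2) against that in GFP+ stromal cells (y axis, log2) for each gene tested; the dashed line marks an equal change in both, and 9 genes beyond 8 log2 units are not drawn. Genes called with a larger luminal minus stromal difference (red, 82) lie below the line and mostly along the luminal axis, and those with a smaller difference (blue, 83) lie above it, with Fyb2, Grk3, Heph and Irf7 spread along the stromal axis.

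DNA replication and mitosis genes formed the list with the most calls. Of 32 such genes tested, 4 were called, all with a larger difference after E+P and none with a smaller (background 0.468%), 31 had a positive interaction and the median was 2.45 on the log2 scale, beside -0.01 for all genes. In luminal cells alone 25 of the 32 were called higher, with a median change of 2.63, and in stroma none was called, with a median of -0.04. The list summed to 237 to 806 CPM in untreated and 2513 to 3130 CPM in E+P luminal cells, against 120 to 171 and 132 to 144 CPM in stroma. Promoters are shown for 3 of the called genes that act in DNA replication or chromatin copying, because each holds the E2F-like letters TTTNNCGC, which were searched after these genes had been seen among the calls. Sequences are the 250 bases before the RefSeq start on the strand of the gene (GRCm38.p6), 5′ to 3′, with matches on either strand in capitals. Mcm6 lies on the minus strand at chr1:128359706-128359955, Dtl on the minus strand at chr1:191575545-191575794 and Hells on the plus strand at chr19:38930740-38930989.
Mcm6: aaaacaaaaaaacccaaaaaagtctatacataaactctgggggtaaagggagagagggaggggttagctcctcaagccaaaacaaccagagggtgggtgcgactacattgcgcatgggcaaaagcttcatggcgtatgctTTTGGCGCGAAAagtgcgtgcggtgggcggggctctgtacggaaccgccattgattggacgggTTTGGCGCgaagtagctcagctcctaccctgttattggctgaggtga
Dtl: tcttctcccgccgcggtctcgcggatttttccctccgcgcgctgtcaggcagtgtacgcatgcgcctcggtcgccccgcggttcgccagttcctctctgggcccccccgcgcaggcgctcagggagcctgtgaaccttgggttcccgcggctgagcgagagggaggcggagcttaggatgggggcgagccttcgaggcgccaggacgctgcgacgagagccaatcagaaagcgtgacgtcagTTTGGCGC
Hells: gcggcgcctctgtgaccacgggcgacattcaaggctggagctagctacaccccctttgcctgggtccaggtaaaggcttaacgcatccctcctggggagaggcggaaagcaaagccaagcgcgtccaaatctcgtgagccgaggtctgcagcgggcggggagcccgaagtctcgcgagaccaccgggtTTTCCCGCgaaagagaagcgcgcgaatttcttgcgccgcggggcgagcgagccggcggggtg
Mcm6 had 3 matches, of which a forward and a reverse match overlap in the first run of capitals, and Dtl and Hells had 1 each. The promoters of Mcm3, Kif11, Stil and Ezh2, which were called too, held no match. Those of the called genes Irx2 and Gas6, given below, held 1 each. The letters were found in 8 of 61 promoters of genes with a larger difference (13.1%), in 1 of 57 with a smaller difference (1.75%), in 797 of 11299 promoters of tested genes (7.05%) and in 4.39% of all 27025 promoters in the table. These shares are descriptions and no test was made of them.

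Mcm3 encodes a subunit of the MCM helicase that opens DNA at replication origins (ENSMUSG00000041859.10, chr1:20802968-20820312 on the minus strand of GRCm38). In luminal cells it was at 7.14, 9.47, 21.8 and 15.4 CPM in untreated mice 1 to 4 and at 86.1, 74 and 58.9 CPM in E+P mice 1 to 3. In stroma it was at 11.5, 13.7, 14.7 and 11.9 CPM and at 7.74, 8.66 and 10.1 CPM. The E+P luminal values were above all others, and the stromal values after E+P were all below the untreated ones. The luminal minus stromal difference grew by 3.07 ± 0.36 (log2, SE) with an adjusted p of 0.00451. Its helicase partners Mcm4 (interaction 1.91, adjusted p = 0.00748) and Mcm6 (1.4, adjusted p = 0.00534) were called too. Mcm6 was at 52.9 to 86.9 CPM in untreated and 135 to 176 CPM in E+P luminal cells, and at 19.6 to 21.4 and 16.4 to 19.9 CPM in stroma. Kif11, a motor protein of the mitotic spindle, was at 4.51, 3.63, 19.1 and 11.5 CPM in untreated luminal cells and at 77.1, 61.2 and 66.5 CPM after E+P. Its stromal levels were 1.18 to 2.65 CPM untreated and 0.962 to 2.28 CPM after E+P, which overlap, and its interaction was 3.27 ± 0.44 (adjusted p = 0.00649, or 0.0255 without the block of mice). In each of these 4 genes untreated mice 3 and 4 had more luminal RNA than mice 1 and 2.

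Other called genes of the cell cycle, named by the size of their interaction or after their values were seen, behaved alike. Dtl, the substrate receptor of a ubiquitin ligase that acts in S phase, was at 3.53 to 13.2 CPM in untreated and 44.8 to 52.1 CPM in E+P luminal cells, and at 2.40 to 3.08 and 0.993 to 1.79 CPM in stroma (interaction 3.56 ± 0.52, adjusted p = 0.00851). Hist1h1a, a linker histone, had an interaction of 3.63 (adjusted p = 0.00222). Stil, which is needed for centriole duplication, rose from 1.57 to 4.14 CPM to 22.8 to 27.6 CPM in luminal cells and was at 0.489 to 1.28 CPM in all stromal libraries (3.87, adjusted p = 0.00222). The chromatin remodeller Hells had 2.65 (adjusted p = 0.00356) and the histone methyltransferase Ezh2 1.21 (adjusted p = 0.00801). The usual proliferation markers had similar values with a larger spread and were not called. Mki67 was at 40.4, 54.6, 259 and 174 CPM in untreated luminal cells and at 1314, 1166 and 1118 CPM after E+P, with 1.35 to 11 CPM and 3.67 to 9.12 CPM in stroma (interaction 2.90, adjusted p = 0.0867), and Top2a had 2.52 (adjusted p = 0.123). Both were called in luminal cells alone, by 3.18 (adjusted p = 0.00506) and 2.92 (adjusted p = 0.00658). Bub1, with 0 counts in untreated stroma, was the only member of the list with a negative interaction, -1.32 (adjusted p = 0.478).

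**Figure D3:**
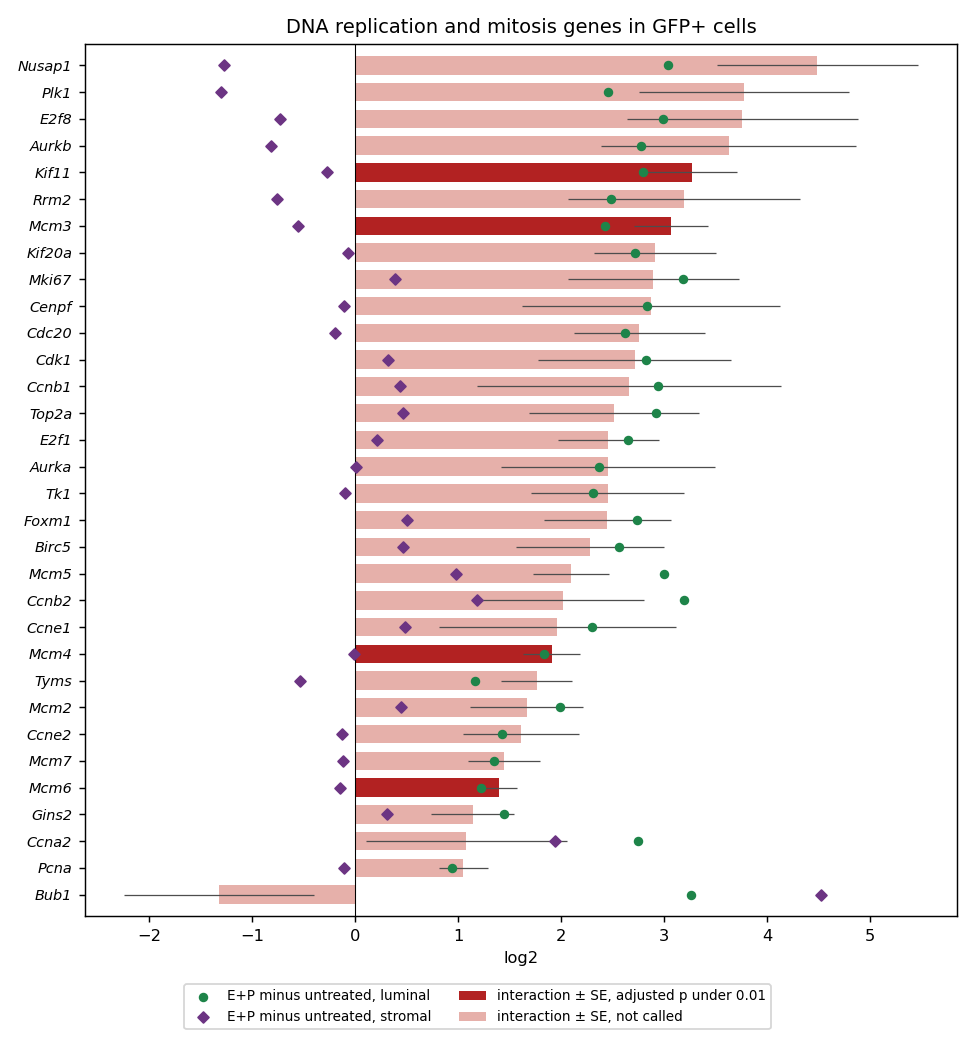
Interaction with its SE (bars; dark red where the adjusted p was under 0.01) for the 32 DNA replication and mitosis genes tested, with the E+P change in luminal cells (green circles) and in stromal cells (purple diamonds), all in log2 units. The luminal change is above 0 for every gene on the plot, the stromal points have a median of -0.04 with Bub1 highest at 4.52, and 4 bars (Kif11, Mcm3, Mcm4 and Mcm6) are called.

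Among called genes with a mean of at least 10 CPM in some group and 1 CPM in each lineage, the largest interactions were in Tnfrsf19, Pcsk6 and St6gal1. Tnfrsf19, a TNF receptor family member also known as TROY (chr14:60963875-61046490, minus strand), was at 0.188, 0.302, 0.46 and 0.0786 CPM in untreated luminal cells, 1 to 8 counts per library, and at 7.11, 4.67 and 4.93 CPM after E+P. Its stromal levels were 7.3, 43.2, 15.5 and 4.95 CPM and then 3.67, 5.72 and 5.41 CPM. The luminal values were separate and the stromal values overlapped, with untreated mouse 2 far above the rest, and the interaction was 5.92 ± 0.53 (adjusted p = 0.00198). Pcsk6, a proprotein convertase that cleaves precursors of secreted factors (chr7:65861734-66050386, plus strand), was at 1.31, 0.504, 2.82 and 0.865 CPM in untreated luminal cells and at 26.2, 22 and 17.3 CPM after E+P. Over the same mice it was at 162, 179, 109 and 127 CPM in stroma and then at 40.7, 35.2 and 56.9 CPM. The treatments did not overlap in either lineage, and the directions were opposite. The interaction was 5.61 ± 0.56 (adjusted p = 0.00399), from a luminal change of 3.88 (adjusted p = 4.45e-05) and a stromal change of -1.70, which was not called (adjusted p = 0.0151).

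St6gal1, which adds sialic acid to N-glycans (chr16:23224740-23360350, plus strand), was near equal in both lineages of untreated mice, at 6.57, 3.23, 5.23 and 3.7 CPM in luminal cells and 5.72, 8.77, 3.94 and 3.66 CPM in stroma. After E+P it was at 39.7, 42.9 and 33.4 CPM in luminal cells and at 1.3, 0.641 and 2.63 CPM in stroma. No E+P value fell in the untreated range of its lineage, and the interaction was 4.90 ± 0.62 (adjusted p = 0.00649). C1qtnf1, a secreted C1q/TNF-related protein, followed the same course from 6.25 to 21.3 CPM to 72.3 to 96 CPM in luminal cells and from 135 to 196 CPM to 66.5 to 88.1 CPM in stroma (3.78, adjusted p = 0.00639). Taken alone, the stromal changes were not called for Tnfrsf19, St6gal1 or C1qtnf1 (adjusted p = 0.193, 0.0521 and 0.0855).

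Of the 3 cytochrome P450 genes called, Cyp26b1 and Cyp1b1 had a larger difference and Cyp2d22 a smaller one (-2.83, adjusted p = 0.00255), which were brought together after their values were seen. Cyp26b1, which degrades retinoic acid, was at 0.288 to 0.629 CPM in untreated and 1.1 to 2.15 CPM in E+P luminal cells, and at 86.1, 39.2, 55.6 and 86.3 CPM and then 16.9, 17.2 and 33.7 CPM in stroma. Its interaction was 3.36 ± 0.27 (adjusted p = 0.00198), and the change within either lineage was not called (adjusted p = 0.0257 and 0.0241). Cyp1b1, which oxidises estradiol and retinol, had 2.5 (adjusted p = 0.00222), with 57.2 to 110.5 CPM and 275 to 359 CPM in luminal cells. Ahrr, the repressor of the aryl hydrocarbon receptor, was at 0.0786 to 0.403 CPM and then 8.08 to 8.93 CPM in luminal cells and at 0.55 to 3.24 and 0.745 to 1.14 CPM in stroma (5.77, adjusted p = 0.00214). Cyp1b1 and Ahrr were named after their values were seen.

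Receptor and ligand genes were called in both directions. Oxtr, the oxytocin receptor, through which milk ejection is triggered, was at 27.5, 66.2, 43.1 and 30.7 CPM in untreated luminal cells and 102, 104 and 73.8 CPM after E+P, and in stroma at 3.84, 5.37, 3.76 and 2.11 CPM and then 0.978, 0.748 and 1.24 CPM. The ranges were separate in each lineage (interaction 3.07 ± 0.33, adjusted p = 0.00298), although the change within luminal (adjusted p = 0.0142) or stromal cells (adjusted p = 0.0329) was not called. It was the only called gene of 8 basal cell genes tested (background 0.468%). It made up much of that list's sum in luminal libraries, with means of 41.9 of 87.7 CPM untreated and 93.1 of 139.4 CPM after E+P. Without called changes, Acta2 had means of 15.96 and 4.26 CPM and Krt14 of 3.79 and 9.67 CPM there. Mertk, a receptor tyrosine kinase, rose in luminal cells from 4.74 to 7.16 CPM to 21.3 to 29.3 CPM and was at 17.8 to 31.8 CPM in all stromal libraries (1.85, adjusted p = 0.00526). Gas6, which encodes the ligand of Mertk, went the other way (-2.79 ± 0.36, adjusted p = 0.00732). It was at 310, 361, 384 and 414 CPM in untreated luminal cells and 142, 209 and 172 CPM after E+P, and at 66.5, 158, 72.2 and 69.9 CPM and then 268, 227 and 345 CPM in stroma, so that luminal cells had more Gas6 RNA in all 4 untreated mice and stromal cells had more in all 3 E+P mice. The changes within luminal (adjusted p = 0.0193) and stromal cells (adjusted p = 0.0107) were not called. Irx2, a homeobox gene, was at 182 to 249 and 182 to 242 CPM in luminal cells and fell in stroma from 11.3 to 25.2 CPM to 5.41 to 5.93 CPM (interaction 1.58, adjusted p = 0.00534; stromal change -1.59, adjusted p = 0.00325).

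The milk and STAT5 list had 2 called genes of 27 tested, both with a larger difference (background 0.468%). Of the 27 interactions 17 were above 0 and 10 below, with a median of 0.40. Stat5a, the transcription factor that prolactin activates in alveolar cells (chr11:100859351-100885169, plus strand), was at 60.5, 60, 95.5 and 83.4 CPM in untreated luminal cells and at 257, 295 and 243 CPM after E+P. In stroma it was at 44.7, 89.7, 86.6 and 60.8 CPM and at 70.3, 66.9 and 55.2 CPM. The ranges of the lineages overlapped in untreated mice and were apart after E+P (1.93 ± 0.24, adjusted p = 0.00503). Stat5b, its neighbour and close relative, had 0.92 (adjusted p = 0.00665), with 81 to 102 and 136 to 148.6 CPM in luminal cells. Both genes share much of their coding sequence, and how shared reads were assigned in the counts was not given in the sources used here. Csn2, the beta-casein gene, was at 84.3 CPM in untreated mouse 4 and 172 CPM in E+P mouse 1 and at no more than 3.12 CPM in the other luminal libraries (interaction not called, adjusted p = 0.459). Elf5, a regulator of alveolar fate, was at 162 to 281 CPM and 167.8 to 170.4 CPM in luminal cells and at 0 counts in the E+P stromal libraries (adjusted p = 0.125).

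Further genes with a larger difference were Nrep, a neuronal regeneration-related gene (3.18 ± 0.23, adjusted p = 0.00168), Glrb, the beta subunit of the glycine receptor (3.30, adjusted p = 0.00494), and Sox4, a transcription factor gene (1.47, adjusted p = 0.00198). Nrep was at 1.91 to 6.29 CPM and then 21.5 to 36.7 CPM in luminal cells and at 50.8 to 119 CPM in stroma, and Sox4 at 153 to 247 CPM and then 390 to 489 CPM in luminal cells and 63.5 to 118 CPM in stroma. Both rose in luminal cells with no call in stroma. Tsc22d3, a gene induced by glucocorticoids, rose from 5.74 to 12.8 CPM to 19.8 to 27.5 CPM in luminal cells (interaction 2.08, adjusted p = 0.00664). The Dishevelled-binding genes Dact1 (1.66, adjusted p = 0.00748) and Dact2 (1.91, adjusted p = 0.00732) were both called. Slfn9 (1.86, adjusted p = 0.00198) was the gene of this group that rested most on the block, with an adjusted p of 0.101 without it. Both lineages of a mouse were high or low together, at 14.8, 14, 45.6 and 29.2 CPM in luminal and 22.7, 21.1, 75.4 and 42 CPM in stromal cells of untreated mice 1 to 4.

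Klk1 and Smpd3 passed the size rule with a lineage under 1 CPM in both treatments. Klk1, a tissue kallikrein, had 0 counts in the 4 untreated luminal libraries and 1286, 44 and 141 in the E+P ones, and in stroma 0, 14, 0 and 0 and then 2, 0 and 2. It was within the carry-over level in 4 of 7 stromal libraries, its adjusted p was 0.0076, and without the block of mice it was 0.0916. Without untreated mouse 2 its adjusted p was 1. Smpd3, a neutral sphingomyelinase, fell in stroma from 222, 173, 142 and 167 CPM to 8.64, 15.5 and 17 CPM (stromal change -3.67, adjusted p = 0.000396). It had only 2, 1, 0 and 0 counts in untreated and 0, 6 and 19 in E+P luminal libraries, within the carry-over level in 5 of 7, and its luminal change was not called (adjusted p = 0.0978), while the interaction was (adjusted p = 0.0075).

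**Figure D4:**
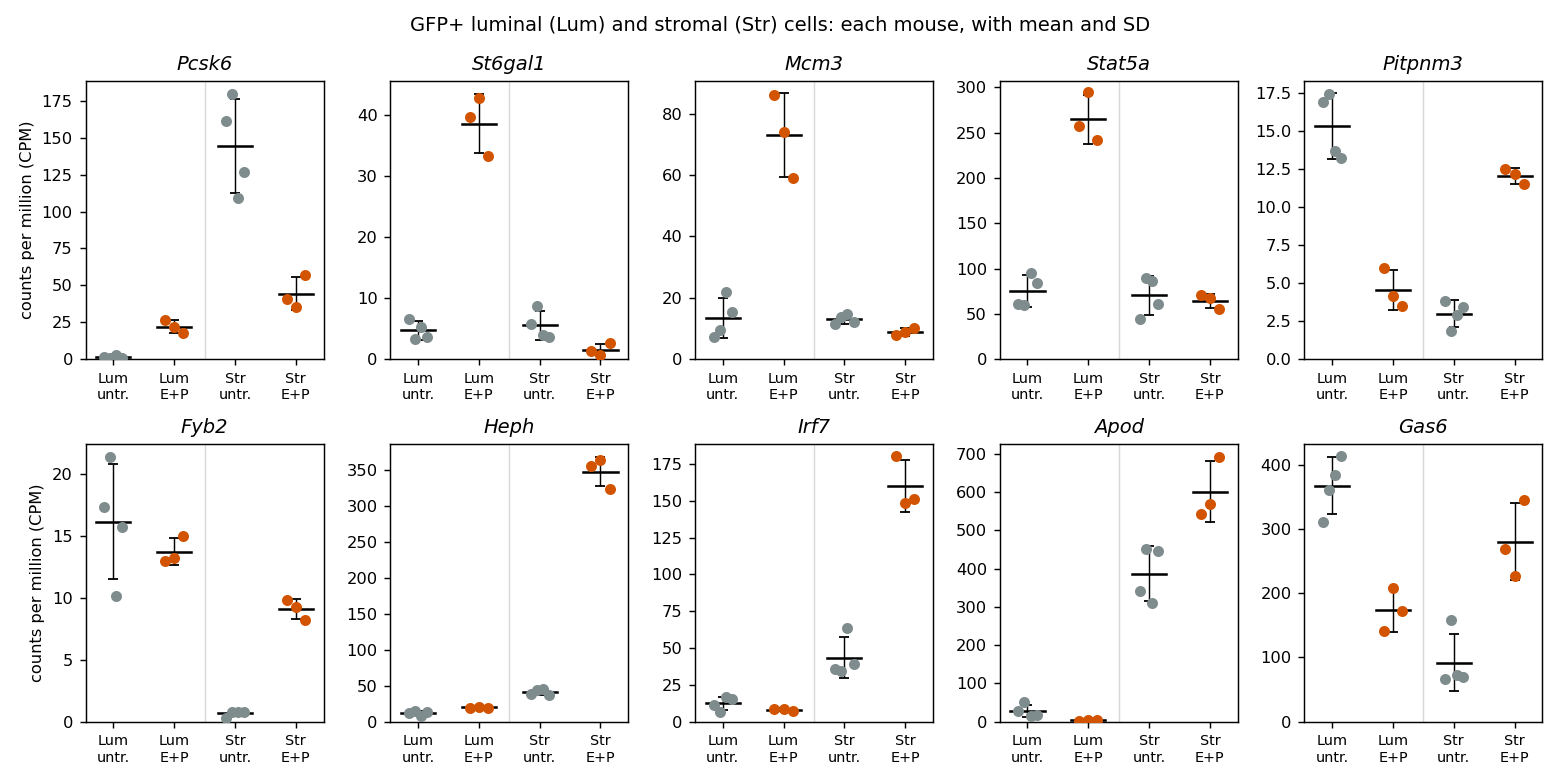
CPM of 10 genes in each of the 14 libraries, by lineage and treatment (grey, untreated, n = 4 mice; orange, E+P, n = 3), with the mean (line) and SD (bars) of each group, on linear axes from 0. For Pcsk6 and Pitpnm3 the treatments separate in opposite directions in the lineages, Mcm3 and Stat5a rose in luminal cells, Fyb2, Heph and Irf7 rose in stroma, and Gas6 was higher in luminal cells before and in stroma after E+P.

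Among the 83 genes whose signed difference became smaller, several rose in stroma with no call in luminal cells. Fyb2, an adaptor protein gene (chr4:104913456-105016863, plus strand), was at 17.3, 21.4, 10.2 and 15.7 CPM and then 13, 13.2 and 14.9 CPM in luminal cells, ranges that overlap, and rose in stroma from 0.301, 0.79, 0.8 and 0.824 CPM to 9.86, 9.24 and 8.24 CPM. Its interaction was -3.92 ± 0.41 (adjusted p = 0.00226) and its stromal change 3.73 (adjusted p = 2.14e-05). Grk3, a kinase that desensitises G protein-coupled receptors, rose in stroma from 0.903 to 3.47 CPM to 14.8 to 20.8 CPM and was at 51.8 to 94.1 CPM in luminal cells (-3.53, adjusted p = 0.00579). Agrn, a heparan sulfate proteoglycan of basement membranes, rose in stroma from 71.8 to 104 CPM to 128 to 165.6 CPM while luminal levels went from 177 to 197 CPM to 118 to 132 CPM (-1.38, adjusted p = 0.00432; luminal change not called, adjusted p = 0.0118). Ctla2a, which encodes an inhibitor of cysteine proteases, had 16, 39, 1 and 3 counts in untreated and 2736, 576 and 2064 in E+P stroma. It had 0 to 5 counts in luminal libraries, within the carry-over level in 3 of 7 (-8.71, adjusted p = 0.00298, or 0.0572 without the block).

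Heph, the membrane ferroxidase hephaestin (chrX:96455359-96574485, plus strand), rose in both lineages but by unequal amounts. Luminal levels were 12.6, 14.7, 8.51 and 13.1 CPM and then 19.6, 20.7 and 19.6 CPM, and stromal levels 38.3, 44.8, 46.1 and 36.5 CPM and then 356, 364 and 325 CPM. Treated and untreated mice separated in each lineage. The stromal change of 3.07 (adjusted p = 2.42e-08) exceeded the luminal change of 0.71 (adjusted p = 0.00508), with an interaction of -2.34 ± 0.22 (adjusted p = 0.00214). Heph was 1 of 9 genes called in both lineages. Of the other 8, Pitpnm3 moved in opposite directions and 7 moved in the same direction in both lineages with no interaction called (Clca3a2, Nexmif, Nrk, Il13ra1, Adamtsl4, Zfp990 and Mpp7), among them Nrk, a kinase gene that rose from 0.188 to 0.69 CPM to 1.79 to 5.87 CPM in luminal cells and from 3.48 to 10.5 CPM to 57.5 to 87.8 CPM in stroma (interaction -0.78, adjusted p = 0.536).

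Pitpnm3, a member of the phosphatidylinositol transfer protein family (chr11:72047528-72135778, minus strand), was the only gene called in both lineages with opposite signs. In luminal cells it was at 16.9, 17.4, 13.7 and 13.2 CPM in untreated mice and 6.01, 4.12 and 3.45 CPM after E+P. In stroma it was at 3.84, 1.82, 2.89 and 3.39 CPM and then 12.5, 12.2 and 11.5 CPM. Luminal cells had more of this RNA in all 4 untreated mice and stromal cells had more in all 3 E+P mice. The luminal change was -1.76 (adjusted p = 0.00041), the stromal change 2.01 (adjusted p = 0.000869) and the interaction -3.82 ± 0.36 (adjusted p = 0.00214).

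Other genes fell in luminal cells with no call in stroma. Apod, a lipocalin that binds arachidonic acid and progesterone (chr16:31296192-31314808, minus strand), was at 27.7, 50.4, 16.2 and 17.4 CPM in untreated luminal cells and at 2.49, 4.29 and 3.83 CPM after E+P, against 341, 450, 309 and 445 CPM and then 543, 568 and 692 CPM in stroma (-3.50 ± 0.37, adjusted p = 0.00432). Abcc3, an organic anion exporter, fell in luminal cells from 80.5 to 120 CPM to 11.3 to 15.5 CPM (-3.36, adjusted p = 0.0075). Scnn1b, a subunit of the epithelial sodium channel, fell from 25.9 to 58.6 CPM to 5.52 to 7.22 CPM (-3.19, adjusted p = 0.00791), and Aqp5, a water channel, from 51.1 to 194 CPM to 22.3 to 30.1 CPM (-3.39, adjusted p = 0.00851). Without the block Scnn1b and Aqp5 missed the threshold, at 0.0159 and 0.0162. Stromal levels of these 3 transport genes were at most 3.53 CPM, and were within the carry-over level in 3, 2 and 3 of 7 stromal libraries for Abcc3, Scnn1b and Aqp5. Ptn, which encodes the growth factor pleiotrophin, was at 660, 156, 874 and 92.1 CPM in untreated and 21.5, 28.3 and 23.2 CPM in E+P luminal cells (-3.25, adjusted p = 0.00787, or 0.0917 without the block). Dst, a cytoskeletal linker, was at 1364 to 1655 CPM and then 488 to 526 CPM in luminal cells, with 1217 to 1412 CPM in all stromal libraries (-1.58, adjusted p = 0.00255).

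Complement, lectin and receptor genes of this kind included C4b, which encodes complement component C4 (29.9 to 120 CPM and then 9.32 to 13.6 CPM in luminal cells; -3.35, adjusted p = 0.00665), and C1ra, a protease of the C1 complex (-3.06, adjusted p = 0.00486). C1ra was at 398 to 587 CPM in stroma and fell in luminal cells from 2.36 to 4.88 CPM to 0.379 to 0.76 CPM, which was within the carry-over level in 2 libraries. The fibroblast marker list in luminal libraries was lower after E+P in the same mice, and its part in the change of genes that are abundant in stroma, such as C1ra and Has2, was not tested. Lgals3, which encodes galectin-3, was at 99.6 to 147 CPM and then 23.2 to 41.5 CPM in luminal cells and at 54.1 to 99.8 CPM and then 106 to 128 CPM in stroma (-2.60, adjusted p = 0.00432). Nrp1, a receptor for semaphorins and VEGF, had -2.24 (adjusted p = 0.00486).

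The matrix genes gave few calls. Of 31 interstitial matrix genes 1 was called (background 0.474%), Col15a1 (-1.88, adjusted p = 0.00989, or 0.0201 without the block). Of the 31 interactions 23 were below 0, with a median of -1.13. In stroma no member was called in either direction and the median change was 0.24. Luminal levels of these genes were small beside stromal ones, as for Col3a1 at 5.47 to 38.2 CPM against 10246 to 27288 CPM (-2.03, adjusted p = 0.024), and Col15a1 was within the carry-over level in all 7 luminal libraries. Has2, the hyaluronan synthase, was at 101 to 187 CPM in untreated and 97.5 to 127 CPM in E+P stroma, and had 20, 9, 43 and 17 counts in untreated and 2, 2 and 0 in E+P luminal libraries (-3.88, adjusted p = 0.00935), within the carry-over level in 3 of 7. Col28a1 rose in stroma from 6.41 to 18.8 CPM to 41.6 to 62.9 CPM (stromal change 2.10, adjusted p = 0.00396; interaction -3.80, adjusted p = 0.0086). The matricellular gene Ccn5 was at 3.31, 7.58, 9.05 and 5.77 CPM and then 47.7, 16.3 and 33.9 CPM in stroma (-3.61, adjusted p = 0.00214), and Papln, which encodes papilin, at 12 to 18.5 CPM and then 49.4 to 72.8 CPM (-3.10, adjusted p = 0.00665). Of 20 protease genes and their inhibitors 1 was called (background 0.474%), Adamts15, which rose in stroma from 88.1 to 156 CPM to 244 to 301 CPM (-1.57, adjusted p = 0.00659).

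Of 24 interferon and class I antigen presentation genes 2 were called, both with a smaller difference (background 0.474%), and 19 of 24 interactions were below 0, with a median of -0.51. The summed level of the list overlapped between treatments in both lineages, at 778.5 to 1225 CPM and then 1093 to 1688 CPM in luminal cells and at 3307 to 5572 CPM and then 4102 to 5131 CPM in stroma. Irf7, a transcription factor that amplifies the interferon response (chr7:141262706-141266481, minus strand), was at 35.7, 34.5, 64 and 39.4 CPM in untreated stroma and at 180.1, 148.7 and 151.3 CPM after E+P. In luminal cells it was at 11.2, 6.85, 16.5 and 15.5 CPM and at 8.84, 8.46 and 6.95 CPM, which overlap. Its interaction was -2.50 ± 0.22 (adjusted p = 0.00198) and its stromal change 1.88 (adjusted p = 0.00181). Oasl2 had -1.45 (adjusted p = 0.00455, or 0.076 without the block). Outside the list, and named after their values were seen, Trim30a (-2.15, adjusted p = 0.00553), Dhx58 (-2.04, adjusted p = 0.00432) and Xaf1 (-1.30, adjusted p = 0.00665) were called in the same direction, while Slfn9, a Schlafen family gene given above, was called in the opposite one. Trim30a fell in luminal cells from 11.1 to 19.9 CPM to 4.01 to 4.28 CPM (luminal change -1.77, adjusted p = 0.000987), and the luminal change of Xaf1 was not called (adjusted p = 0.0336). Dhx58 and Xaf1 missed the threshold without the block, at 0.0134 and 0.113.

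In the TGF-beta and BMP list 2 of 26 genes were called, both with a smaller difference (background 0.474%). Of the 26 interactions 21 were below 0, with a median of -0.34. Tgfbr2, the type II receptor for TGF-beta, was at 110 to 152 CPM and then 79.7 to 97.9 CPM in luminal cells, and at 686, 813, 863 and 640 CPM and then 1442, 1108 and 1210 CPM in stroma, with no overlap in either lineage (-1.27 ± 0.18, adjusted p = 0.00711). The change within a lineage was not called for luminal (adjusted p = 0.026) or stromal cells (adjusted p = 0.0199). Inhbb, which encodes a subunit of activin B, was at 391.6 to 632.1 CPM and then 187 to 249 CPM in luminal cells and at 14.7 to 34.2 and 22.2 to 33.8 CPM in stroma (-1.58, adjusted p = 0.00455, or 0.0286 without the block). Of 38 lipid synthesis genes 27 had an interaction above 0, and 1 was called (background 0.474%), Gpam, the first enzyme of glycerolipid synthesis. It rose in stroma from 28 to 43.9 CPM to 96 to 110 CPM (stromal change 1.44, adjusted p = 0.00147) and was at 14.5 to 26.1 CPM in all luminal libraries (-1.56, adjusted p = 0.00872).

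Several lists had no called member, and their values are given without a verdict. Of the 20 hormone-sensing genes tested, Esr1, which encodes estrogen receptor alpha, was lower after E+P in both lineages, at 92.7, 48.6, 99.2 and 24.5 CPM and then 15.1, 13.5 and 12.4 CPM in luminal cells and at 125, 139, 93.7 and 70.7 CPM and then 33.6, 30.8 and 31.2 CPM in stroma. The luminal change of -2.28 was called (adjusted p = 0.00219), the stromal one was not (-1.75, adjusted p = 0.0449), and the interaction was -0.39 ± 0.39 (adjusted p = 0.635). Pgr, the progesterone receptor gene, had a log2 interaction of -2.69 (adjusted p = 0.0358), with 4.49 to 20.9 CPM and then 34 to 43.2 CPM in stroma and overlapping luminal levels of 20.5 to 259 and 22.7 to 63.4 CPM. Tnfsf11, which encodes RANKL, had 6, 0, 0 and 2 counts in untreated and 262, 36 and 29 in E+P luminal libraries and 0 to 13 in stroma (adjusted p = 0.147). Calca, a gene induced by progesterone in luminal cells, had 6, 0, 2 and 0 and then 919, 45 and 94 luminal counts (adjusted p = 0.0293). Both were highest in E+P mouse 1.

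All 6 genes of the PDGF list were tested and none was called. Pdgfc, a PDGF ligand (chr3:81036416-81214040, plus strand), was nearest, with 1.63 ± 0.26 (adjusted p = 0.0108). It was at 58.7, 71.6, 66.5 and 48.1 CPM and then 81.8, 105 and 89.6 CPM in luminal cells, and at 8.43, 16.3, 9.48 and 8.89 CPM and then 4.24, 4.17 and 7.05 CPM in stroma, without overlap in either. Pdgfa had -1.17 (adjusted p = 0.153), Pdgfb 2.44 (adjusted p = 0.261) and Pdgfd -0.21 (adjusted p = 0.885). The receptor gene Pdgfra was at 1856 to 2464 CPM in stroma and at 9.36 to 25.9 CPM and then 3.31 to 7.2 CPM in luminal cells (-1.62, adjusted p = 0.0685), and the luminal fall was called (adjusted p = 0.00615). Pdgfrb had -2.18 (adjusted p = 0.0641).

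None of 32 Wnt genes tested was called. Lgr6, a receptor for R-spondins, rose in stroma from 0.0616 to 0.632 CPM to 1.82 to 3.72 CPM (stromal change 3.11, adjusted p = 0.00396) and had -3.58 (adjusted p = 0.0108, or 0.0029 without the block). Among 14 EGF family genes Nrg1, a ligand of ERBB3 and ERBB4, rose in stroma from 3 to 12.3 CPM to 30.5 to 35.7 CPM (stromal change 2.36, adjusted p = 0.00716), and its interaction of -3.63 missed the threshold (adjusted p = 0.0144, or 0.00379 without the block). Of 22 genes of the secretory pathway, which folds proteins in the endoplasmic reticulum, 21 had an interaction below 0 with a median of -0.52. None was called, and Hyou1 (-0.92, adjusted p = 0.017) and Manf (-0.96, adjusted p = 0.0168) had the smallest p. Luminal identity genes all had an interaction above 0 (14 of 14, median 2.45) with none called, and their median change was -0.25 in luminal cells and -2.90 in stroma, where luminal marker RNA itself was lower after E+P, as given above. The fibroblast list was the reverse, with 13 of 14 below 0, a median of -1.77 and none called.

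In the remaining lists no interaction was called. For 13 luminal progenitor genes the median was 0.77, and Itgb3 had the smallest p (-2.52, adjusted p = 0.0954). For 19 FGF and IGF genes the median was -0.20. Fgfr2, a receptor for FGF7 and FGF10, was at 299, 110, 474 and 79.8 CPM in untreated and 29.7, 9.22 and 9.18 CPM in E+P luminal cells (luminal change -3.93, adjusted p = 0.00189; interaction -3.39, adjusted p = 0.0395). For 27 basement membrane genes the median was 0.15, and Lamb1, a laminin chain, rose in luminal cells (1.46, adjusted p = 0.00138) with an interaction of 1.34 (adjusted p = 0.0114). Tight junction genes had 13 of 18 interactions above 0 and a median of 1.66, Tjp1 having the smallest p (0.54, adjusted p = 0.049). The median was -0.15 for 20 chemokine genes, of which Cxcl16 rose in stroma (1.70, adjusted p = 0.00344), -0.61 for 19 adipogenic genes, -0.45 for 25 immediate early genes and -0.39 for 5 class II antigen presentation genes. For 26 genes that the study itself had drawn attention to, partly from these libraries and so not independent, the median was -0.11. Among them Alx4, a homeobox gene, rose in stroma from 37.6 to 56.2 CPM to 115 to 172 CPM (stromal change 1.70, adjusted p = 0.00716). It had 0 to 4 counts in luminal libraries, and its interaction was above 0 and not called (2.39, adjusted p = 0.448). Of the other cell type markers, none of 6 skeletal muscle, 10 pericyte and smooth muscle, 6 endothelial, 7 Schwann, 3 leukocyte, 1 red blood cell and 3 adipocyte genes tested was called.

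**Figure D5:**
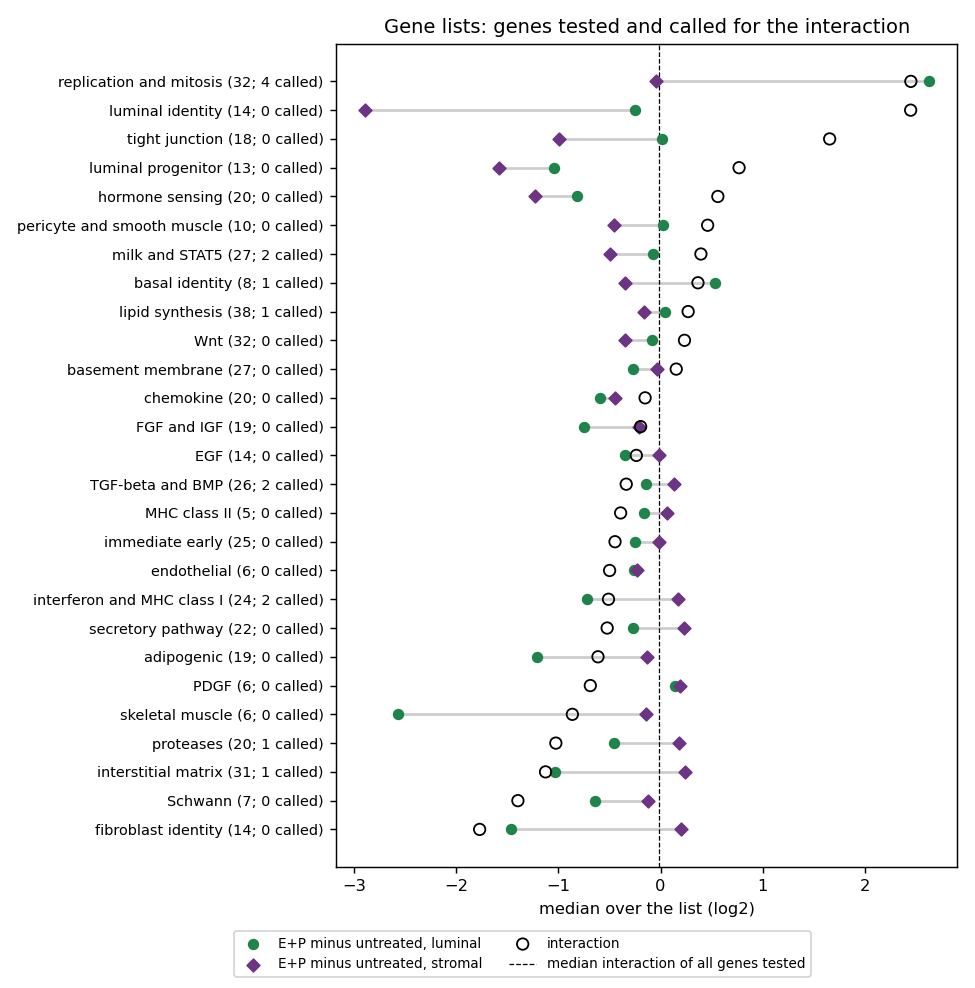
Median E+P change in luminal cells (green circles) and stromal cells (purple diamonds) and median interaction (open circles), in log2 units, over each gene list, with the genes tested and called in parentheses. The dashed line is the median interaction of all genes tested, -0.01; of the 3 lists with the highest median interaction, replication and mitosis genes had a luminal median of 2.63, while luminal identity and tight junction genes had luminal medians of -0.25 and 0.02 and stromal medians of -2.90 and -0.996.

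Hormone and STAT sites were sought in the 250-base promoters as letters only. The progesterone or glucocorticoid receptor half-site AGAACA was in 4.92% of 61 promoters of genes with a larger difference and 17.5% of 57 with a smaller difference. It was in 10.6% of tested genes and 16.2% of all promoters. In the same order, the estrogen receptor half-site AGGTCA was in 11.5%, 17.5%, 10.5% and 13.8%, and the STAT letters TTCNNNGAA were in 3.28%, 5.26%, 5.97% and 7.18%. Both strands were read in each case. Few promoters stood behind the shares of called genes, 2 to 10 per group.

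The same contrast in the tdTomato+ cells of these mice, added after the GFP+ results were known, was called for 995 of 19569 genes (5.08%) in a fit of all 28 libraries. In that fit 208 genes were called for GFP+ cells and 139 (0.710%) for the difference between the GFP+ and tdTomato+ interactions. Of the 82 genes with a larger difference in GFP+ cells, 70 had the same sign in tdTomato+ cells and 17 were called there. Of the 83 with a smaller difference, 62 had the same sign and 23 were called. The libraries come from the same mice, so these are not independent animals. Mertk (3.36, adjusted p = 9.9e-06) and Irf7 (-2.26, adjusted p = 1.62e-05) had interactions in tdTomato+ cells in the GFP+ direction. A difference between the labels was called for 17 of the 165 genes. In what follows the GFP+ values are those given above and the differences come from the fit of 28 libraries. Mcm6 had 1.4 in GFP+ and -1.0 in tdTomato+ cells (difference 2.36, adjusted p = 0.000601). The median of the 32 replication and mitosis genes was 0.97 in tdTomato+ cells, so Mcm6 differed in sign from its list there. Ccn5 had -3.61 and 3.21 (difference -6.79, adjusted p = 0.00302), Papln -3.10 and 2.85 (-6.02, adjusted p = 0.0021) and Aqp5 -3.39 and 4.61 (-8.15, adjusted p = 0.00927). For Pitpnm3 the sign was shared, at -3.82 and -1.33, and the sizes differed (-2.48, adjusted p = 0.00573).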

How the data were processed

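RNA-seq read counts per gene were taken as the authors deposited them, for 28 libraries of sorted mammary cells, of which the 14 GFP+ libraries gave the results. Per the labels, RNA was made into libraries from 2 ng with a stranded total RNA kit and 15 cycles of PCR. The submitters' processing notes name STAR 2.5.2a and GRCm38.p5; the annotation release and the strand setting of the counts were not given in the sources used here, so reads of overlapping antisense genes cannot be told apart. All columns were mapped to a sample.

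Of 50600 genes, 50376 matched GENCODE M21, which gave names and coordinates. Genes were filtered with filterByExpr, scaled by TMM and fitted with edgeR 4.0.16 in R 4.3.3 (robust quasi-likelihood F-test, Benjamini-Hochberg adjustment over 17504 genes, call at 0.01). The interaction was fitted with the mouse as a block, since both libraries of a pair come from 1 animal. Deviations of paired libraries from their group means correlated at r = 0.036 to 0.112, against a mean of -0.013 between mice. E+P effects within a lineage came from a 4-group fit. Each SE was back-calculated from the test, as the absolute log2 change divided by the square root of the F statistic. On simulated counts, for 17025 genes, this interaction fit recovered 3% of genes changed 2-fold and 41% of those changed 4-fold, with 0 calls of the wrong sign. Among unchanged genes 1 was called. The simulated libraries were drawn independently, with no mouse effect, and 200 genes were changed in luminal E+P libraries only. The rates may therefore differ from those in the real data.

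Named genes were the called genes with the largest interaction, at least 10 CPM in the highest group and no overlap between treatments, 12 per direction; up to 5 per direction that were low in 1 lineage; genes called in both lineages with opposite signs; called members of each gene list or, where none was called, those with the smallest p; and the PDGF genes and 9 further genes. Predicted genes were counted but not named, and 1 called gene is not reported here. Others are said to have been named after their values were seen, which holds for Ahrr, Agrn, C1ra, Cyp1b1, Cyp2d22, Dact1, Dact2, Dhx58, Dst, Ezh2, Gas6, Gpc1, Hells, Heph, Irx2, Lgals3, Mertk, Mki67, Mpp7, Nrk, Nrp1, S100a6, Slfn9, Sox4, Top2a, Trim30a, Tsc22d3, Xaf1, Zfp979 and Zfp990. Members, lists and tests were chosen with earlier results of these data known. Alternatives were DESeq2 1.42.0, limma 3.58.1 (voom), other scalings and filters, no block, all 28 libraries and leaving out each mouse.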

Additional observations from a re-analysis of the deposited data

Results flagged for a closer look

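The luminal minus stromal difference changed with E+P for 165 genes, larger for 82 and smaller for 83, which is itself a difference between 2 lineages under 1 treatment by an interaction test. Pitpnm3, with an interaction of -3.82, was called in opposite directions in the lineages.

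In 11 of the values examined for named genes and marker lists over the 4 untreated mice (8.8% of them), 1 mouse lay apart from the other 3, its gap to the nearest taking more of the range than Dixon's 95% critical value allows, which chance gives in about 1 in 20 groups, and nothing is read from their number. Values are within-mouse log2 differences, luminal minus stromal. Untreated mouse 2 was the distant one for Tnfrsf19 (-6.65 beside -4.73 to -4.55, gap share 0.914), Krt19 (4.14 beside 5.88 to 6.22, 0.838), Prlr (3.39 beside 6.13 to 6.51, 0.878), Cyp2d22 (0.78 beside 0.21 to 0.28, 0.875) and Klk1 (-3.26 beside 0, 1.0, with 0 luminal counts). The same mouse held 113.6 CPM of the luminal marker list in its stromal library, beside 23.3 to 37.0 CPM (0.848). Untreated mouse 3 was distant for Stil (1.94 beside 1.08 to 1.21, 0.846), Alx4 (-8.77 beside -8.21 to -8.19, 0.97) and Heph (-2.42 beside -1.60 to -1.48, 0.872). Untreated mouse 1 was distant for Zfp979 (1.39 beside 0.10 to 0.27, 0.87) and Gpc1 (-1.04 beside -1.19 to -1.17, 0.834).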

How the results depend on the processing

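Of the 165 interaction calls, 157 were also called with DESeq2 size factors (165 in all, 77 larger and 88 smaller), 143 with library size only (185, of which 61 or 33% larger in place of 49.7%, with the median of all genes at -0.14 in place of -0.01 on the log2 scale), 164 by DESeq2's Wald test (845; 379 and 466), 157 by voom (409; 198 and 211), 153 with no filter (685; 300 and 385), 127 with no replicate block (300; 145 and 155) and 87 in the fit of all 28 libraries (208; 104 and 104). An adjusted p of 0.05 gave 895 (440 and 455). Luminal calls were 1157 and became 2079 by the Wald test, 1362 by voom, 1294 with no filter, 2489 at 0.05 and 560 in a fit of luminal libraries alone. Stromal calls were 60 and became 334, 188, 172, 210 and 187 in the same order. Leaving out 1 mouse gave 0 to 192 interaction calls (0 to 86 larger, 0 to 107 smaller), 387 to 1248 luminal and 13 to 73 stromal calls. Of 65 called genes named, 52 stayed called without the block of mice. All 65 kept their sign in every alternative. Signs turned only in genes that were not called: Mpp7 (-0.055 with library size only; -0.141 to 0.329 without 1 mouse), Fabp4 (0.10 by voom, 0.12 with no replicate block, 0.015 with all libraries; -0.648 to 0.347 without 1 mouse), and without 1 mouse Cd79b (-4.07 to 0.047), Wnt4 (-0.632 to 1.74), Pdgfd (-0.565 to 0.342), Zfp990 (-2.43 to 1.73) and Tek (-0.263 to 1.71). The cause of these changes was not tested. With 3 and 4 mice, 2-fold changes were rarely recovered in simulation, which held no mouse effect.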

Other observations

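Zfp990, a zinc finger gene, was near 0 in every GFP+ library of E+P mice, with 0 to 3 counts in 6 libraries against 42 to 490 in the 8 untreated ones. In tdTomato+ cells it had 0 to 3 counts in E+P mice and 0 to 3361 in untreated mice, with 1 untreated library at 0. Zfp979 had 0 to 25 counts in GFP+ E+P libraries, 3 of them at 0, and 47 to 180 in untreated ones, and in tdTomato+ cells 0 to 18 and 23 to 395. The 3 GFP+ libraries at 0 were the luminal ones, and stroma of E+P mice 1 to 3 had 25, 20 and 22 counts. The interaction of Zfp979 was called (-7.88, adjusted p = 0.00665). Zfp534 had 0 to 4 and 2 to 22 counts in GFP+ cells and 0 to 2 and 0 to 148 in tdTomato+ cells.

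Gpc1, which encodes a cell surface proteoglycan, had an interaction of -1.23 (adjusted p = 0.00486) that was not called without the block of mice (adjusted p = 0.205). S100a6, a calcium-binding protein gene, fell in luminal cells from 109 to 196 CPM to 31.2 to 53.9 CPM and was at 178 to 266 CPM in stroma (-2.04, adjusted p = 0.00307).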
